A study of Mus musculus with 105 samples.

Results

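The 38 genes described here drive and mark the cell division cycle. They were chosen by symbol from the raw gene count matrix, where each symbol matched 1 of 53379 gene rows. Their levels were read by RNA sequencing in cultured mouse tumour lines with and without Setdb1, in cultured melanocytes and in healthy mouse tissues, all of the C57BL/6 strain. The list held the proliferation markers Mki67 and Top2a, the mitotic cyclins Ccna2, Ccnb1 and Ccnb2 with their kinase Cdk1, and 9 genes of the mitotic checkpoint, mitotic kinases and spindle (Bub1, Bub1b, Cdc20, Aurka, Aurkb, Plk1, Birc5, Kif11 and Tpx2). It also held the 6 MCM helicase genes (Mcm2 to Mcm7), 5 genes of origin licensing, firing and the replication clamp (Cdc6, Cdt1, Cdc45, Gins2 and Pcna), the nucleotide supply genes Tyms and Rrm2, and the transcription factors Foxm1 and E2f1. The G1 machinery completed it: the E cyclins Ccne1 and Ccne2 with Cdk2, and the D cyclins Ccnd1, Ccnd2 and Ccnd3 with Cdk4 and Cdk6.

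The tumour lines were B16 melanoma, B16OVA melanoma, MCA101OVA fibrosarcoma and MC38 colon adenocarcinoma. OVA is part of the line names, and the labels describe it no further. Each line was grown in medium with puromycin and sequenced in 3 conditions: unedited (WT), control (Ctrl) and Setdb1 knockout (KO). Setdb1 is an enzyme that methylates histone H3 at lysine 9 and keeps transposable elements silent. Each group held 3 libraries, except that B16OVA had 6 per condition. The labels give neither a guide nor a clone number for the knockout. Melanocytes (5 libraries) were cultured from newborn C57BL6/J mice. The 12 tissues, with 4 libraries each, came from WT female mice whose ages the labels do not give: brain, colon, heart, kidney, liver, LN (as the labels abbreviate it), lung, ovary, skin, spleen, stomach and thymus. The labels do not say whether the libraries of a group came from separate cultures or animals, so the p-values measure the spread between these libraries only, which may be technical.

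A cell enters the cycle when D cyclins, induced by growth signals, activate Cdk4 and Cdk6, which phosphorylate the retinoblastoma protein and release E2F transcription factors. E2F switches on the genes of DNA replication: Cdc6 and Cdt1 load the MCM helicase on origins, Cdc45 and the GINS complex start it, Pcna clamps the polymerase, and Rrm2 and Tyms make its nucleotides. Genes of mitosis follow later through Foxm1 and through repression by the DREAM complex, which is lifted in dividing cells. Most of the 38 genes are therefore nearly silent in resting tissue, while D cyclins are also made in resting or maturing cells.

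Promoters of these genes are known for short elements that bind E2F, the DREAM complex (the cell cycle homology region, CHR) and the factor NF-Y (the CCAAT box). Windows of 250 bases upstream of the start were taken from RefSeq (GRCm38.p6, 31 windows for 29 of the 38 members) and searched on both strands. The E2F element was searched as TTTCCCGC, TTTCGCGC, TTTGCCGC or TTTGGCGC, which may overlap one another. The CHR was searched as TTTGAA. The CCAAT box was searched by the letters of its name. The E-box was searched as CACGTG. An E2F element stood in 6 of the 29 members (20.7%) and in 1.86% of 32851 promoters of the same length. A member was counted once if any of its windows held the element, while the 32851 promoters are single windows. Among 14 members of replication and G1/S it stood in 5 (35.7%), and among 12 mitotic members in 1 (8.33%). The CHR stood in 6 of the 12 mitotic members, in 2 of the 14 replication and G1/S members (14.3%) and in 15.99% of all promoters. A CCAAT box stood in 11 of the 12 mitotic members (91.7%), in 9 of the 14 replication and G1/S members (64.3%) and in 33.8% of all promoters. The windows of 6 members are printed because they show the mitotic layout, the replication layout and 1 that differs from both. Capitals mark the E2F, CHR, CCAAT and E-box matches, on either strand.

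The mitotic layout, CCAAT boxes with a CHR, is seen in Cdk1 (chr10:69352913-69353162, minus strand, which also holds an E2F element), Mki67 (chr7:135716380-135716629, minus strand) and Ccnb2 (chr9:70421555-70421804, minus strand). In Ccnb2 the only TTTGAA lies upstream of every CCAAT box. In Cdk1 and Mki67 a TTTGAA lies downstream of the CCAAT boxes, so the order of the elements differs. Each is written 5′ to 3′ on the strand of the gene.
Cdk1: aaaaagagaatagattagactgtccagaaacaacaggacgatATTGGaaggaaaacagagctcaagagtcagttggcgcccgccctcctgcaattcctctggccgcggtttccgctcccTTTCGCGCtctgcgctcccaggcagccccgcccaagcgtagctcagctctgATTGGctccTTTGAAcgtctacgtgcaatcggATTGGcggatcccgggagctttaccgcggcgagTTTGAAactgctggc
Mki67: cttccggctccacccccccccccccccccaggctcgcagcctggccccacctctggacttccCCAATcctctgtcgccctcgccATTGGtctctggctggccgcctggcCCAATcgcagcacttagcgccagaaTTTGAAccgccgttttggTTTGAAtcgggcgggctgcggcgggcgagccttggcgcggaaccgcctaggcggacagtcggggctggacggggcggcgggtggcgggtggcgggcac
Ccnb2: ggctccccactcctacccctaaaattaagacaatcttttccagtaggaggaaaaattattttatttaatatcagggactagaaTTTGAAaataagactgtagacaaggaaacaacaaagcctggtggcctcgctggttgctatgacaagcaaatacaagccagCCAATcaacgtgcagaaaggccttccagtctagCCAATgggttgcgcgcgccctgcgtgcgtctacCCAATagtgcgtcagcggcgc

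The replication layout, E2F elements with CCAAT boxes, is seen in the helicase genes Mcm5 (chr8:75109259-75109508, plus strand) and Mcm6 (chr1:128359706-128359955, minus strand). Cdk4 (chr10:127063285-127063534, plus strand) held none of these 3 kinds of element and carried 4 E-boxes, which stood in 3 of the 29 members (10.3%) and in 6.02% of all promoters.
Mcm5: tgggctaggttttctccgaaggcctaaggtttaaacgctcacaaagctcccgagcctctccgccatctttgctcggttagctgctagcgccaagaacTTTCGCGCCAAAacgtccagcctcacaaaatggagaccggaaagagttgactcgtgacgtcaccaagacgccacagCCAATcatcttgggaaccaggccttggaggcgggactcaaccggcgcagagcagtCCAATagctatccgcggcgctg
Mcm6: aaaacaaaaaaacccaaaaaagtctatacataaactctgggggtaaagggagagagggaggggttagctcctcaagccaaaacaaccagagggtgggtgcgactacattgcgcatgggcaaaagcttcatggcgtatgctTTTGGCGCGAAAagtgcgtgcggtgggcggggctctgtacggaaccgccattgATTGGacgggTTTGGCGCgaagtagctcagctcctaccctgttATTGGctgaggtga
Cdk4: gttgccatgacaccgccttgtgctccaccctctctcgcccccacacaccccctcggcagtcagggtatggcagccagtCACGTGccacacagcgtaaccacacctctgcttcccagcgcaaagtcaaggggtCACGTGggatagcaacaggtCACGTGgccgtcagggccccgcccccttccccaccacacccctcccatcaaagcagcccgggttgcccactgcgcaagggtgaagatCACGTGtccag
A match is a stretch of letters, and binding to it was not tested.

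Levels are given as CPM, a gene's counts scaled to a common total of the counts assigned to genes in a library. The tumour line libraries held 17186211 to 50393024 counts and the tissue libraries 53591239 to 254103370. Setdb1 was lower in the KO libraries of B16 (11.7 to 20.6 CPM, Ctrl 59.5 to 65.1) and MCA101OVA (20.4 to 36.7, Ctrl 45.7 to 95.7), with no overlap. In B16OVA (KO 15.6 to 49.9, Ctrl 21.1 to 99.4) the libraries overlapped only between sets: KO was lower within each, with 31.0 against 88.1 in run B253, 15.6 against 21.1 and 23.04 against 59.1 in the sets of run B262, and 35.0 to 49.9 against 73.2 to 99.4 in run D176. In MC38, all in run D176, they overlapped (KO 60.05 to 85.3, Ctrl 54.9 to 125). In 11 of the 45 tumour line libraries long transcripts were low relative to short ones (log2 CPM fell with log2 length, slope under -0.15). Over the 45 libraries Spearman's rho of a member's CPM with this slope was 0.76 for Kif11, 0.76 for Top2a and 0.70 for Mki67, and -0.71 for Cdk4. These values only describe the libraries, which share runs and lines, and results without the 11 libraries are given where they moved. No 2 libraries of a group held identical counts.

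**Figure D1:**
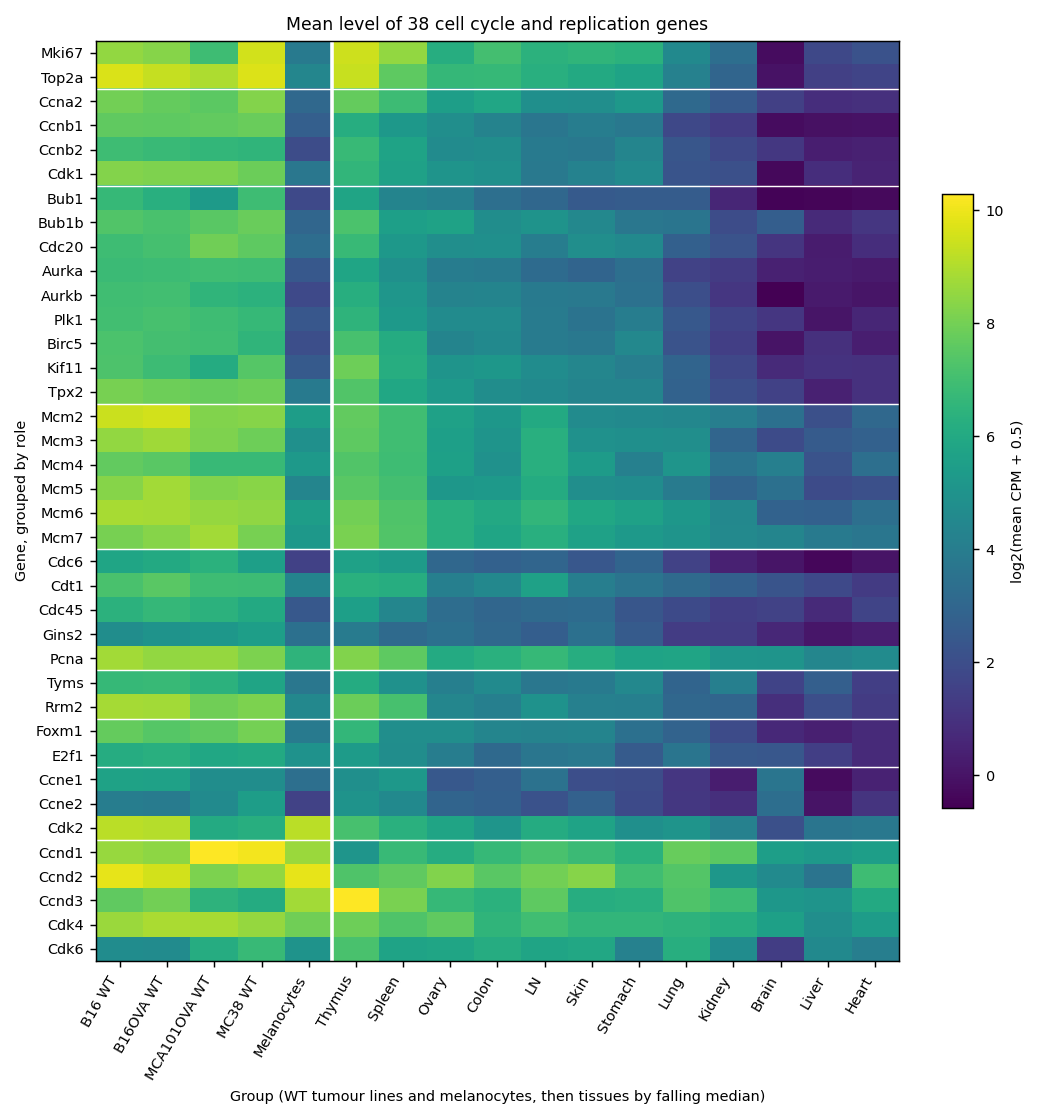
Mean level of each of the 38 genes as log2(mean CPM + 0.5) (colour) in the WT tumour lines, the melanocytes and the 12 tissues (columns; tissues in falling order of their median), with genes in rows by role. Thymus stands at the top of the tissues for 35 of 38 genes, liver, brain and heart at the bottom, and the D cyclin rows (Ccnd1, Ccnd2, Ccnd3) follow other orders.

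The comparison of KO with Ctrl asks how the loss of Setdb1 bears on these genes in each line. No member passed the test in any of the 4 lines. In edgeR's quasi-likelihood test, with Benjamini-Hochberg adjustment over 16809 genes and a threshold of 0.05, 0 of 38 members were called in each line, and DESeq2 called 0 in each as well. The same test called 1.05% of all genes in B16OVA, 0.69% in B16, 0.464% in MC38 and 0.345% in MCA101OVA, so that 0 of 38 is near the background and is no result about the members. At an unadjusted p under 0.05 there were 2 members in B16OVA, 3 in MCA101OVA and 0 in the other lines. The shares of all genes at the unadjusted threshold are not given, here or below. Such counts are therefore no result about the members. In bulk libraries a smaller share of cycling cells and less RNA per cycling cell cannot be told apart.

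The medians of the 38 log2 fold changes (KO against Ctrl) were -0.30 in B16OVA, -0.11 in MCA101OVA, -0.01 in MC38 and 0.12 in B16, beside medians over all genes of -0.01, 0.01, -0.01 and 0.00. In B16, 28 members had a positive fitted value and 10 a negative one. In B16OVA 3 were positive and 35 negative, in MCA101OVA 13 and 25, and in MC38 18 and 20. The runs of B16OVA differed: the median difference between KO and Ctrl was 0.08 in run B253 (1 library each, 25 of 38 members higher), -0.24 in run B262 (2 each, 27 lower) and -0.30 in run D176 (3 each, 34 lower). In MCA101OVA it was -0.36 in run B253 (1 each, 25 lower) and 0.13 in run B262 (2 each, 28 higher), and the fitted median was 0.48 without the libraries of low slope. In B16 it was 0.13 in run B253 (27 higher) and 0.03 in run B262 (21 higher). In MC38, all in run D176, it was 0.08 with 28 higher and 10 lower, on CPM, where the fit had 18 positive values. These values within runs are on log2(CPM + 0.5), without the fit's scaling of libraries. Whether the KO effect differed from that in B16OVA was tested as an interaction. No member was called for B16, MCA101OVA or MC38 (0 by DESeq2, 0 at an unadjusted p under 0.05), where 0.0%, 0.101% and 0.262% of all genes were.

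Mki67, the antigen of dividing cells, varied widely between libraries of 1 group. In B16OVA it was 201, 42.6, 358, 572, 75.5 and 637 CPM in the WT libraries, 119, 9.29, 351, 605, 765 and 397 in Ctrl and 133, 23.7, 448, 380.4, 261 and 696 in KO. The 3 groups overlapped throughout. Replicate 2 of each group and WT replicate 5, which held low values, are among the 11 of low slope. In the fit the log2 fold change, KO against Ctrl, was -0.11 ± 0.67 (SE). In MCA101OVA it was 70.2, 19.7 and 177 CPM in Ctrl and 887, 75.3 and 156 in KO, a log2 fold change of 1.92 ± 1.001 with an adjusted p of 0.878 in edgeR. A single KO library, the first, held the high value, and the other two lay inside the Ctrl range. Of these 6 libraries, the first and second of Ctrl and the second of KO are of low slope. Without a filter on low counts Mki67 was called in MCA101OVA (log2 fold change 1.93, edgeR adjusted p 1.3e-04), and this was the only call of a member in a KO comparison under the alternatives tried, besides its interaction. The spindle motor gene Kif11 (1.38), Top2a (1.18), whose enzyme untangles DNA, and the checkpoint kinase gene Bub1 (1.13) followed as the next highest fitted values in MCA101OVA, and none passed.

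Cdk1, the kinase that drives mitosis, was 315.7, 467, 465, 242, 274 and 221 CPM in the Ctrl libraries of B16OVA and 333.4, 155, 417, 255, 134 and 225 in KO. Its groups overlapped, with a log2 fold change of -0.53 ± 0.28 (SE, edgeR adjusted p 0.706). Ccnb1, its cyclin partner, was 213, 169, 234, 205, 201 and 175.7 in Ctrl and 195, 90.7, 297, 169, 123 and 174 in KO. Ccna2, the cyclin of S phase and early mitosis, was 250.2, 106, 230.4, 266, 305.6 and 266 in Ctrl and 188, 64.1, 273, 207, 133 and 259.9 in KO. For all 3 genes KO replicates 2 and 5 were the lowest of the 6 KO libraries. The same held for Rrm2, the small subunit of ribonucleotide reductase, at 490.3, 101, 599, 355, 98.7 and 441 CPM in KO against 522, 279, 584, 389, 572 and 512 in Ctrl, and for Mcm5, at 549, 146, 388, 277, 122 and 338.8 against 448, 405, 411, 305.2, 377 and 346.98. By role, the medians of the fitted values in B16OVA were -0.60 for nucleotide supply, -0.46 for origin genes, -0.40 for mitotic cyclins and for the E cyclin group, -0.31 for checkpoint and spindle genes, -0.28 for the MCM helicase, -0.17 for the transcription factors and -0.13 for the D cyclin group and for the proliferation markers, without a call in any role.

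Tyms, thymidylate synthase, had the smallest p of the members in both OVA lines. Its log2 fold change was -0.59 ± 0.27 (SE, edgeR adjusted p 0.608) in B16OVA and -0.91 ± 0.38 (adjusted p 0.878) in MCA101OVA. In MCA101OVA the Ctrl libraries held 103, 162 and 48.2 CPM and the KO libraries 81.8, 65.7 and 48.8, which overlapped. Gins2, a subunit of the GINS complex, had -0.74 ± 0.40 in B16OVA and -1.13 ± 0.57 in MCA101OVA. Its exons overlap those of Gse1 on the opposite strand over 2758 of 4097 bases, and whether counting used the strand is not given in the sources used here.

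In B16 the helicase and the clamp gave no call either. Mcm2 was 1056, 615 and 775 CPM in the Ctrl libraries and 986, 776 and 820.0 in KO. Mcm5 was 495, 268 and 399 in Ctrl and 541, 448 and 391 in KO, and Pcna was 481, 261.6 and 573 in Ctrl and 572, 227 and 559.9 in KO. All 3 overlapped between the conditions. Of the 38 members, 1 had every KO library below every Ctrl library and 2, Cdt1 and Plk1, had every one above, where 2.63% and 3.3% of all genes did. These counts are near the background and are no result about the members. Ccnd2 was the one below, at 551, 414 and 618 in KO and 747, 855 and 659 in Ctrl (log2 fold change -0.48 ± 0.35, edgeR adjusted p 1). Plk1, the mitotic kinase, was 182, 223 and 157 in KO and 156, 144 and 135 in Ctrl (0.42 ± 0.49). No member was separated in either way in the other lines. The shares of all genes are not given there, so this is no result about the members.

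Apart from Ccnd2 in B16, the KO libraries overlapped with Ctrl for every G1 cyclin and for E2f1 in each of the 4 lines. E2f1, the factor of S phase entry, was 94.3, 83.5 and 79.5 CPM in Ctrl and 99.7, 83.7 and 80.4 in KO of B16, and 74.4, 62.3 and 73.3 in Ctrl and 69.5, 65.8 and 79.8 in KO of MC38. Ccne1, the cyclin of the G1/S transition, was 17.9, 20.7 and 30.9 in Ctrl and 16.6, 18.8 and 30.2 in KO of MC38. Ccne2 was 14.9, 47.96 and 62.8 in Ctrl and 32.5, 40.6 and 65.6 in KO. The values of both conditions interleave. Ccnd1, a D cyclin, was 1682, 1248 and 851 in Ctrl and 1259, 759 and 841 in KO of MCA101OVA (-0.58 ± 0.28, unadjusted p under 0.05 and edgeR adjusted p 0.878). Its kinases Cdk4 and Cdk6 had -0.46 and 0.29 there, and -0.28 and 0.11 in B16OVA.

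In MC38 Mki67 was 353, 1042 and 877 CPM in Ctrl and 792, 959.8 and 587 in KO, and Ccna2 was 224, 376 and 377 in Ctrl and 325.1, 360.5 and 404 in KO. Plk1 was 64.9, 113 and 125 in Ctrl and 87.6, 118 and 139.5 in KO. Foxm1, the factor that switches on mitotic genes, had the smallest p of the members, at 101, 229 and 263 in Ctrl and 212, 296 and 286 in KO (log2 fold change 0.36 ± 0.30, edgeR adjusted p 1). The first Ctrl library was the lowest of the 6 for each of these genes, and it is one of the 11 libraries of low slope. Cdc6, which licenses origins, was lowest there too (22.1, 47.2 and 69.8 in Ctrl, 29.8, 42.96 and 57.6 in KO).

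**Figure D2:**
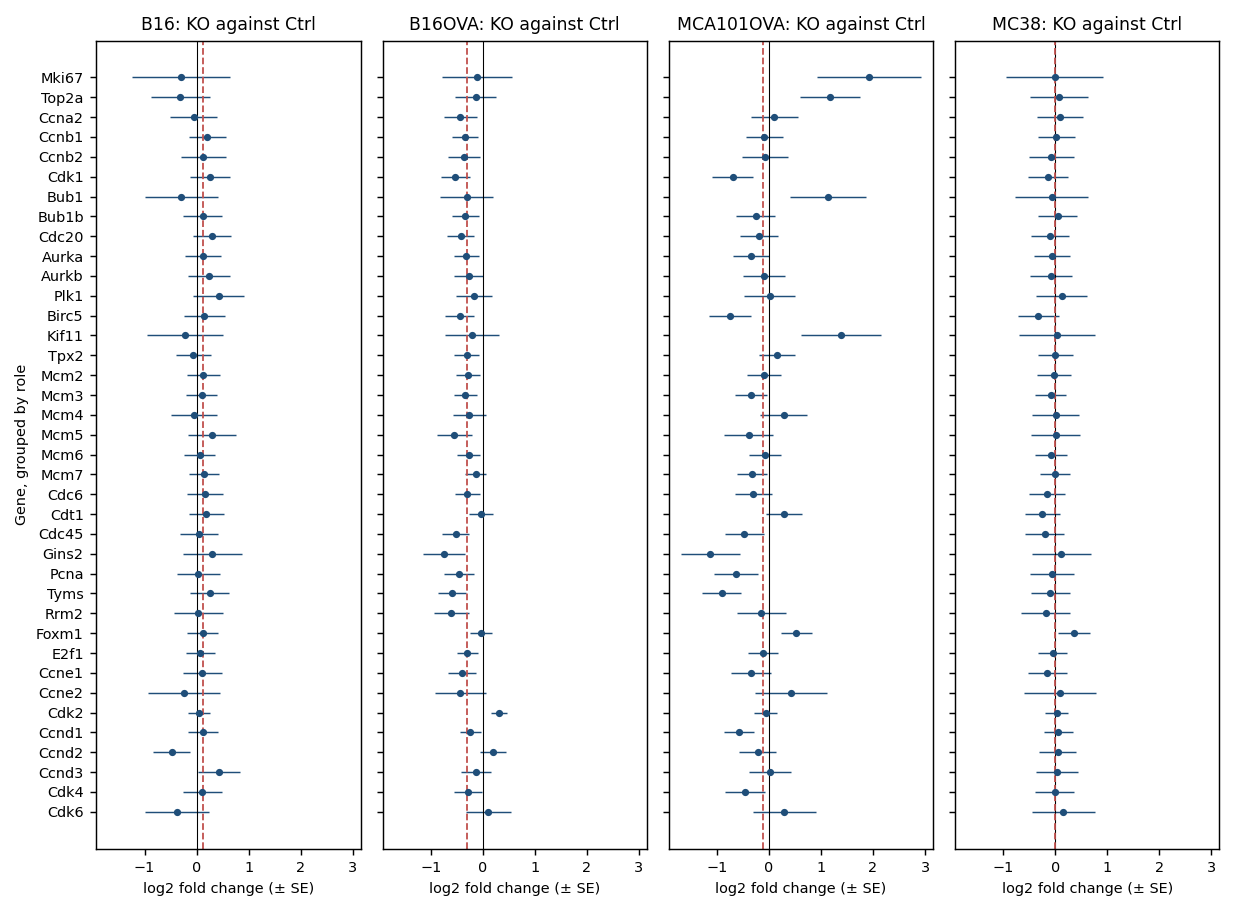
Log2 fold change of each member (points) with its standard error (bars), KO against Ctrl, in the 4 lines; the dashed line is the members' median (0.12, -0.30, -0.11 and -0.01). No member passed the test, and the largest value is Mki67 in MCA101OVA (1.92).

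The wider lists of the pathway gave no call either. Of 48 other replication genes 47 were tested, of 48 other mitosis genes 48, and of 31 inhibitors, pocket proteins and regulators 29. In each line 0 of each list were called up and 0 down in KO against Ctrl. As for the members, 0 is near the background and is no result about the lists. Ctrl was also compared with WT. No member was called in B16, B16OVA, MCA101OVA or MC38, nor was any other gene (0.0% in each line), and DESeq2 called 0 members. At an unadjusted p under 0.05 there was 1 member, in MCA101OVA.

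In MCA101OVA the third WT, Ctrl and KO libraries stood apart from the other 6. By library number they belong to a later set of run B262, which also holds B16 and B16OVA libraries. The third MCA101OVA libraries were all lower for 21 of 38 members and all higher for 1, where 11.9% of all genes were lower in this way and 13% higher. Plk1 was 36.8, 35.9 and 44.6 CPM in these libraries in WT, Ctrl and KO, a mean of 39.1 against 169 in the others. Ccnb2, a mitotic cyclin, averaged 30.6 against 125, the helicase subunit gene Mcm5 146 against 394 and Cdk4 240.4 against 556. Cdc6 (85.7 against 80.9) and Foxm1 (211 against 203) were similar. Leaving the third MCA101OVA libraries out gave a median KO difference of -0.15 and no call.

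The comparison of the WT lines asks how the same machinery differs between tumours. Between B16OVA and B16 no member was called (0 of 38 by edgeR and by DESeq2, 0 at an unadjusted p under 0.05, where 0.0238% of all genes were called by edgeR). A lack of calls does not show that the levels were equal. Between MC38 and MCA101OVA there were also 0 calls (0 by DESeq2, 1 at an unadjusted p under 0.05, 1.13% of all genes), in a comparison that goes through the run term because these lines share no run. Against B16OVA, 7 of 38 members differed in MC38, where 44.1% of all genes did, and 9 in MCA101OVA, where 43.2% did. The share of members called was thus below the background in both. The D cyclin and E cyclin groups with their kinases made up 5 of the 7 and 6 of the 9. The counts rested on the libraries used: without those of low slope 11 members differed from MC38 and 15 from MCA101OVA, and within the run that MC38 shares with B16OVA, D176, 11 did. With the library set as a block in place of run 11 differed from MC38 and 10 from MCA101OVA. The shares of all genes under these settings are not given, so these counts are not set against the background.

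The D cyclins went in different directions. Ccnd1 was 401, 422, 457, 221, 227 and 338.3 CPM in B16OVA WT, 1071, 1068 and 1149 in MC38 WT and 1291, 1382 and 957 in MCA101OVA WT. Every B16OVA library was below every library of the other two lines, with a log2 fold change of -2.05 ± 0.25 (SE, edgeR adjusted p 1.1e-08) against MC38 and -1.34 ± 0.26 (4.1e-05) against MCA101OVA. Ccnd2 was higher in B16OVA: 1087, 426, 782, 929.6, 346.2 and 903 CPM, against 377, 288 and 425 in MC38 (1.26 ± 0.34, edgeR adjusted p 0.00245) and 255, 178 and 417 in MCA101OVA (1.22 ± 0.33, 0.00279). Its libraries overlapped. Ccnd3 was 197, 334.3, 216, 114, 439 and 210.2 in B16OVA, above 70.8, 69.0 and 65.5 in MC38 (1.94 ± 0.39, edgeR adjusted p 1.0e-04) and 89.4, 112 and 60.4 in MCA101OVA (1.82 ± 0.40, 2.8e-04), without overlap. Per kilobase of exon, the mean level in B16OVA WT was 79.3 ± 31.5 (SD) CPM per kb for Ccnd2, 73.1 ± 21.4 for Ccnd1 and 28.7 ± 13.2 for Ccnd3. The order of Ccnd2 and Ccnd1 lay within this spread. In MC38 WT Ccnd1 led with 233, before Ccnd2 (38.6) and Ccnd3 (7.80). Of the kinases, Cdk6 was 40.7, 7.49, 28.1, 31.6, 7.39 and 35.4 CPM in B16OVA and 126, 97.7 and 99.2 in MC38, without overlap (-1.82 ± 0.55, edgeR adjusted p 0.00664), while Cdk4 was not called.

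Among the other called members, the helicase subunit gene Mcm2 was 692, 793, 736, 631, 961 and 664 CPM in B16OVA WT, 269, 328.5 and 365 in MC38 and 366, 325.8 and 214 in MCA101OVA. Its libraries did not overlap, and the log2 fold change was 1.34 ± 0.31 (edgeR adjusted p 5.0e-04) and 1.45 ± 0.31 (2.4e-04). Mcm3, which encodes another subunit, was also higher, by 0.91 ± 0.29 (edgeR adjusted p 0.00892) and 0.75 ± 0.29 (0.0326), but its call was lost in 3 of 18 alternatives against MC38 and in 10 of 19 against MCA101OVA, among them without B16OVA WT replicate 5 against both lines. Ccne1 was 48.4, 63.6, 60.6, 38.8, 52.01 and 36.0 in B16OVA and 28.0, 39.8 and 12.1 in MCA101OVA (1.31 ± 0.36, edgeR adjusted p 0.00330), with overlap. Cdt1 was called against MCA101OVA (0.77 ± 0.32, edgeR adjusted p 0.0488) and lost the call in 12 of 19 alternatives. Cdk6 was also lower than in MCA101OVA (-1.79 ± 0.53, edgeR adjusted p 0.00591) and lost the call in 3, among them the fit without MCA101OVA WT replicate 3 (log2 fold change -1.23, adjusted p 0.105). The calls of Ccnd1, Ccnd2, Ccnd3, Cdk2 and Mcm2 were made under every alternative against both lines. The proliferation markers and mitotic cyclins did not pass, Mki67 with -0.62 ± 0.85 against MC38 and 0.65 ± 0.87 against MCA101OVA.

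Cdk2, the kinase of the E cyclins (chr10:128697939-128705031, minus strand, mm10), had the largest log2 fold change of a member between lines. It was 542, 413, 490.1, 771, 391 and 627 CPM in B16OVA WT, 68.7, 81.5 and 76.002 in MC38 WT and 74.2, 66.7 and 60.5 in MCA101OVA WT, with a log2 fold change of 3.19 ± 0.23 (edgeR adjusted p 3.2e-14) against MC38 and 2.76 ± 0.22 (7.0e-13) against MCA101OVA. At its 5′ end Cdk2 overlaps the pigment gene Pmel (chr10:128704195-128720238, plus strand), with 34 exon bases in both genes. Pmel averaged 5564 CPM in B16OVA WT, 0.302 in MC38 WT and 1.73 in MCA101OVA WT. The melanocytes, where Pmel was 4747, 15539, 15540, 20993 and 13942 CPM, held 107, 818, 539.5, 679 and 672 of Cdk2, and the library with the least Pmel held the least Cdk2. Among the tissues Cdk2 was highest in thymus (mean 138), where Pmel averaged 0.711, and 52.97 in skin, where Pmel averaged 18.9. The part of Pmel reads in the Cdk2 counts was not tested.

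Of the wider lists, 11 of 47 replication genes were higher and 3 lower in B16OVA than in MC38, 0 and 6 of 48 mitosis genes, and 6 and 6 of 29 inhibitors and regulators. Against MCA101OVA the counts were 7 and 2, 2 and 3, and 6 and 4. In both comparisons each list was called at a smaller share than all genes, whose shares stand above. These counts are therefore no result about the lists. Cdkn1a, which encodes the p21 inhibitor of cyclin-dependent kinases, differed most of those named, with a log2 fold change of 3.70 ± 0.53 (edgeR adjusted p 3.0e-07) and 4.002 ± 0.55 (1.2e-07). Rpa3, a subunit of the protein that coats single-stranded DNA, was higher in B16OVA by 1.63 and 1.89. E2f7 (-1.59) and E2f4 (-1.54), both repressive E2F factors, were lower than in MC38. Against MCA101OVA the antiproliferative genes Btg2 (2.55) and Btg1 (-1.73) differed in opposite directions. Between MC38 and MCA101OVA only Recql4, a replication helicase gene, was called in these lists (-1.34 ± 0.31, edgeR adjusted p 0.0160). Its mean level was 34.9 CPM in MC38 WT and 35.2 in MCA101OVA WT, nearly the same, and the fitted difference goes through the run term because these lines share no run.

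The comparison with melanocytes sets the melanoma line beside cultured cells of the same lineage. Nearly the whole set was higher in B16OVA WT. In run D176, which held both (3 B16OVA WT and 5 melanocyte libraries), 33 of 38 members were called up and 0 down, where 22.3% of 16778 genes were called up, and the members' median was 3.95 on the log2 scale. For 33 members, and for 14.6% of all genes, the lowest B16OVA library of the run lay above the highest melanocyte library. DESeq2 also called 33 up.

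Mki67 was 572, 75.5 and 637 CPM in the 3 B16OVA libraries and 16.7, 17.3, 2.16, 0.685 and 32.7 in the melanocytes, a log2 fold change of 4.91 ± 0.78 (SE, edgeR adjusted p 3.9e-05). Ccnb1 was 162, 142 and 203 against 14.6, 5.52, 2.33, 1.06 and 6.45 (4.83 ± 0.53), and Cdk1 231, 229 and 258 against 23.5, 12.2, 9.71, 3.53 and 14.96 (4.28 ± 0.40). Ccna2 was 235, 73.8 and 300.96 against 15.8, 8.66, 2.42, 0.890 and 12.1 (4.63 ± 0.59). No melanocyte library reached the B16OVA range for these mitotic genes. Aurkb, the kinase that corrects chromosome attachment, had the largest log2 fold change of the members (5.26 ± 0.52, edgeR adjusted p 1.3e-07). Plk1 was 75.4, 159.8 and 135 against 10.5, 3.60, 1.85, 0.479 and 7.02 (4.81 ± 0.60), and Foxm1, which drives such genes, 147, 111 and 186 against 20.5, 13.8, 12.3, 8.39 and 17.4 (3.39 ± 0.29). Top2a (4.94), Ccnb2 (4.92), Birc5 (4.87) and Bub1 (4.82) were also among the largest. The checkpoint kinase genes Bub1b (4.12) and Aurka (4.53), Kif11 (4.54), the spindle assembly gene Tpx2 (3.92) and Cdc20 (3.59), which activates the anaphase ligase, passed as well.

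The replication genes were higher as well. The licensing factor gene Cdc6 was 41.0, 70.7 and 64.2 CPM in B16OVA against 2.67, 2.62, 2.29, 0.445 and 4.05 in melanocytes (4.75 ± 0.49). Mcm5 was 272, 696 and 322.4 against 27.6, 19.9, 15.4, 9.62 and 28.2 (4.60 ± 0.44), and Mcm2 631, 961 and 664 against 36.2, 50.9, 61.3, 26.6 and 46.5 (4.24 ± 0.33). The nucleotide gene Rrm2 was 375, 269 and 513 against 53.8, 20.0, 17.99, 3.15 and 14.96 (4.11 ± 0.59). None of these groups overlapped. Pcna, which also serves DNA repair, differed less, at 377, 166 and 362 against 51.6, 103, 91.5, 101 and 95.2 (1.82 ± 0.26). E2f1 was 67.3, 76.2 and 80.9 against 54.5, 23.1, 35.5, 11.9 and 28.6 (1.34 ± 0.34), and Ccne1 38.8, 52.01 and 36.0 against 16.3, 9.48, 14.5, 3.25 and 5.70 (2.20 ± 0.43). Ccne2, the second E cyclin gene, was 16.99, 4.51 and 26.9 against 3.52, 3.76, 1.16, 0.411 and 3.55 (2.68 ± 0.61), and B16OVA replicate 5 lay close to the melanocyte range. The remaining replication members passed with log2 fold changes between 1.75 (Gins2) and 4.45 (Cdc45).

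By role, the medians were 4.93 for the proliferation markers, 4.73 for the mitotic cyclins, 4.54 for checkpoint and spindle genes, 3.63 for the helicase, 3.57 for nucleotide supply, 3.25 for origin genes, 2.37 for the transcription factors, 2.20 for the E cyclin group and -0.37 for the D cyclin group. The D cyclins were not called. Ccnd2 was 929.6, 346.2 and 903 CPM in B16OVA and 971, 1008, 963, 968 and 825 in melanocytes (-0.37 ± 0.24, edgeR adjusted p 0.203). Ccnd1 was 221, 227 and 338.3 against 552, 332.8, 505, 181 and 462 (-0.58 ± 0.32, edgeR adjusted p 0.141). Ccnd3 was 114, 439 and 210.2 against 454, 340.1, 517, 440.4 and 418 (-0.57 ± 0.38, edgeR adjusted p 0.235). The libraries of Ccnd1 and Ccnd3 overlapped, and those of Ccnd2 did too. Cdk6 (-0.37 ± 0.45) and Cdk2 (0.18 ± 0.34) were not called, while Cdk4 was higher in B16OVA, at 382, 566 and 381 against 224, 267, 317.9, 181 and 212 (1.03 ± 0.24, edgeR adjusted p 0.00153). Some alternatives called D cyclins lower in B16OVA: Ccnd1 (-0.78) and Ccnd3 (-0.88) in a fit of 50 libraries with all runs, Ccnd1 without melanocyte replicate 4 (-0.86), and Ccnd3 without B16OVA WT replicate 5 (-1.54).

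**Figure D3:**
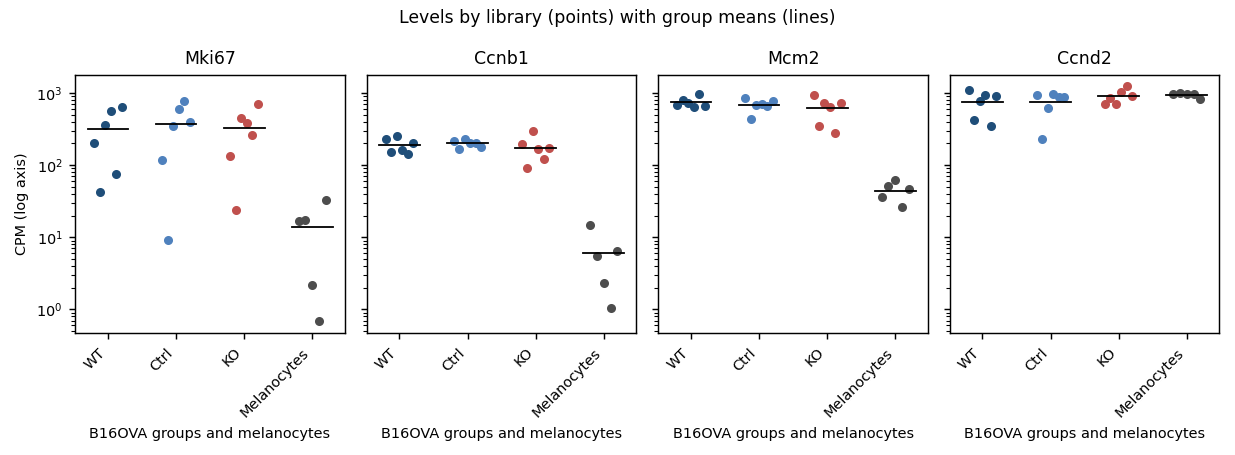
CPM (log axis) of Mki67, Ccnb1, Mcm2 and Ccnd2 in each library of the B16OVA groups (6 each) and the 5 melanocyte libraries, with group means as lines. For Ccnb1 and Mcm2 all melanocyte libraries lie below all B16OVA libraries; for Mki67 the Ctrl and KO groups reach into the melanocyte range (9.29 and 23.7); for Ccnd2 the melanocyte libraries lie within the B16OVA range.

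The melanocyte libraries also differed among themselves. Library 4 was lowest for 31 of 38 members (16.2% of all genes) and library 1 highest for 20 (20.7%). Library 1 stood apart in its markers too: the fibroblast collagen gene Col1a1 was 5879, 814, 216, 446 and 75.9 CPM, and Tyr, an enzyme gene of pigment synthesis, 131, 1292, 748, 1252 and 1267. All 4 fibroblast markers were highest in library 1, with summed levels of 12884, 1777, 592, 973 and 120.3, and the 6 melanocyte markers summed to 12419, 50717, 49171, 65712 and 45675. Without library 1, and without each other library in turn, each of the 33 members was still called.

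Of the wider lists, 45 of 47 replication genes and 47 of 48 mitosis genes were higher in B16OVA than in melanocytes. Of 31 inhibitors and regulators 15 were higher and 6 lower. The share of all genes called up stands above, and the share called down is not given. Tk1, the thymidine kinase of S phase, was higher by 5.71 ± 0.69 (edgeR adjusted p 1.5e-06). Cdkn2a, which encodes the Cdk4 inhibitor p16Ink4a and the protein p19Arf, had 0 counts in all 6 B16OVA WT libraries and 57.2 to 126 CPM in the melanocytes (mean 85.9 ± 28.9 SD, n = 5). Taking 3 counts over the 3 libraries of the run as the floor (0.0343 CPM), it was at least 2503-fold lower in B16OVA. Its neighbour Cdkn2b, which encodes another such inhibitor, also had 0 counts, against 20.9 ± 7.21 CPM (15.2 to 32.3), at least 608-fold lower. Cdkn1c, the p57 inhibitor gene, was lower too (-6.26 ± 1.31, edgeR adjusted p 5.8e-04), with 44 counts in the 3 libraries of the run and a wide range of 2.77 to 168 CPM in the melanocytes.

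Each tissue was compared with the mean of the other 11 in a fit of 26242 genes. Replicate 4 was the only library outside run D812 in brain, colon, LN, lung, ovary, skin, stomach and thymus. The fit rescales each library by a TMM factor, from a mean of 0.481 in liver and 0.651 in heart to 1.39 in ovary, while the CPM printed beside it are per library total, so the folds and the ratios of CPM differ. The thymus, where T cell precursors multiply, held the highest mean for 35 of the 38 members (17.5% of all genes), and for 19 of them (6.48% of all genes) none of its libraries overlapped with those of the next tissue. The median of the 38 member means was 139 CPM in thymus, 63.5 in spleen, 32.3 in ovary, 27.3 in colon, 26.9 in LN, 20.3 in skin and 19.7 in stomach. It was 8.08 in lung, 5.11 in kidney, 2.43 in brain, 1.89 in liver and 1.83 in heart. By CPM, the lowest mean was in liver for 20 members, in brain for 12, in heart for 5 and in thymus for 1, Ccnd1. The shares of all genes are not given for this order, and the TMM factors change it. In the fit the members' median log2 fold change was lowest in brain (-2.72), before heart (-2.31) and liver (-1.92). A tissue is a mixture of cells, so these are levels of the whole piece. Rag1, which recombines T cell receptor genes, was 1416, 2452, 1778 and 3081 CPM in the thymus libraries and at most 3.72 in any other tissue library.

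In thymus 36 of 38 members were higher and 1 lower, with a median log2 fold change of 3.08, where 39.9% of all genes were called up. Mki67 was 886, 721, 469 and 746 CPM (4.39 ± 0.23 SE, edgeR adjusted p 7.7e-20). Top2a was 587, 765, 553 and 763 (4.61 ± 0.21), and Kif11 averaged 238 ± 44.9 (SD, n = 4; 4.25 ± 0.18). Birc5, the survivin subunit of the chromosomal passenger complex, and Rrm2 were higher by 4.04 and 3.97. Cdk1 was 110.5, 92.2, 86.1 and 94.3, Mcm2 189.9, 239, 166 and 216 and E2f1 54.2, 40.1, 36.0 and 36.0. By role the medians ran from 4.50 for the markers and 3.67 for checkpoint and spindle genes through 2.58 for the helicase to 1.10 for the D cyclin group. Ccnd3 was 1725, 1140, 1116 and 999 in thymus and 227, 173, 382 and 299.6 in spleen, the next tissue (3.35 ± 0.10, edgeR adjusted p 2.2e-27). Ccnd1 went the other way, at 33.3, 32.0, 30.5 and 36.7 (-1.88 ± 0.20), and Ccnd2 was not called (0.11).

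In spleen 37 members were higher and 0 lower (median 2.19; 34.1% of all genes were up). Cdc6 averaged 41.3 ± 32.6 (SD, n = 4; log2 fold change 3.62 ± 0.21), Ccne1 36.7 ± 24.9 (3.17 ± 0.21) and Rrm2 141 ± 101 (3.34 ± 0.22). The SDs were large, and replicates 3 and 4 lay above replicates 1 and 2 for 34 of 38 members and for 10.7% of all genes. Mki67 was 175.8, 134, 584 and 576 CPM and Ccne1 20.7, 12.2, 66.7 and 47.4. The same libraries held more of all 4 erythroid precursor markers reported here, whose summed level was 489.6, 331.9, 1309 and 1246. Klf1, the regulator of red cell genes, was 29.5, 5.49, 136 and 108, and Alas2, an enzyme gene of haem synthesis in red cell precursors, 318.2, 246, 697 and 715. The 3 B cell markers did not follow, with sums of 2833, 2363, 2323 and 2153. The part of erythroid cells in the member levels was not tested. With replicates 1 and 2 as the only spleen libraries 33 members were higher (median 1.29), and with replicates 3 and 4 36 were (median 2.66), where 28.5% of all genes were up in each fit.

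**Figure D4:**
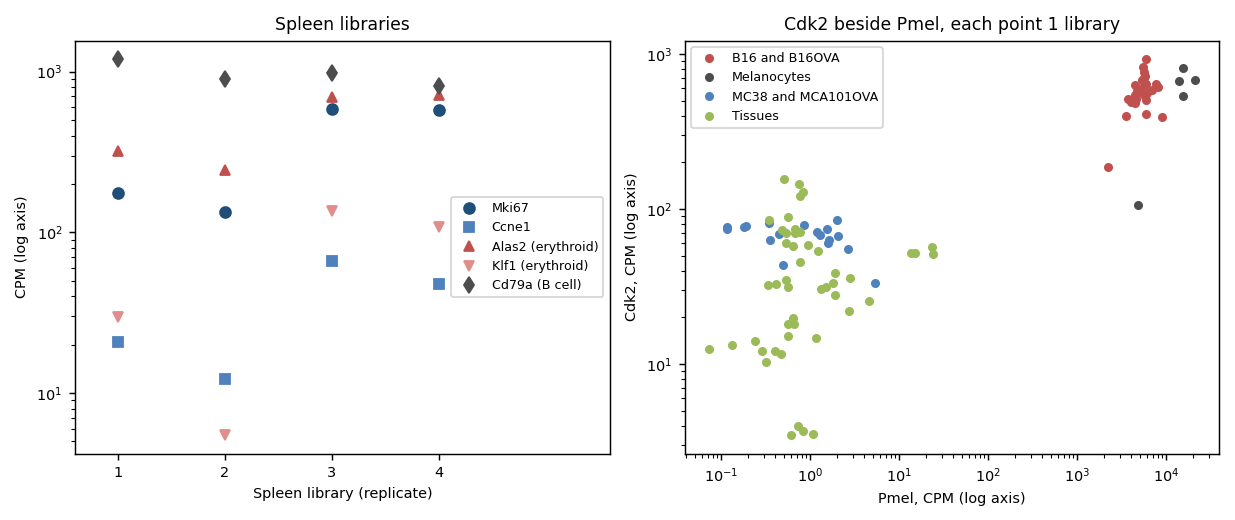
Left, CPM (log axis) of Mki67, Ccne1, the erythroid genes Alas2 and Klf1 and the B cell gene Cd79a in the 4 spleen libraries: libraries 3 and 4 are higher for the first 4 genes (Mki67 584 and 576 against 134 in library 2) and not for Cd79a. Right, Cdk2 against Pmel in each library (both log axes, both CPM): B16 and B16OVA libraries and 4 of 5 melanocyte libraries stand high in both, while Cdk2 varies among tissues of low Pmel.

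Against spleen, thymus was higher for 20 members and lower for 1 (median 0.75; 29.4% of all genes were up). Ccnd3 led with 2.10 ± 0.20, followed by Foxm1 (1.66), Top2a (1.63) and Kif11 (1.56), and Ccnd1 was the lower one (-1.76 ± 0.23). The choice of spleen libraries moved this: 34 members were higher and 1 lower against replicates 1 and 2 alone (22.7% of all genes were up), and 6 higher and 2 lower against replicates 3 and 4 alone (21.7%). Without spleen replicate 2 there were 14 calls and without replicate 3 there were 30. Against LN, spleen was higher for 32 members and lower for 0 (median 1.30; 10.7% of all genes were up), led by Ccne2 (2.72 ± 0.38), Cdc6 (2.63 ± 0.41) and Rrm2 (2.32 ± 0.42). With spleen replicates 1 and 2 alone 1 member was higher (4.83% of all genes), with 3 and 4 alone 35 were (9.07%), and without replicate 3 there were 21. In LN itself 25 members were above the other tissues and 0 below (median 0.71; 32.6% of all genes were up). The 3 largest folds there were in replication genes: Cdt1 averaged 49.3 ± 8.31 (1.66 ± 0.14), Mcm3 76.4 ± 17.6 (1.37 ± 0.15) and Mcm5 69.1 ± 16.1 (1.32 ± 0.18). By role, the medians were 1.16 for the proliferation markers, 1.02 for the helicase and 0.68 for checkpoint and spindle genes, and lowest for origin genes (0.37) and nucleotide supply (0.22).

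Colon and stomach, whose epithelium renews all the time, were above the mean of the other tissues for 27 and 26 members, with 1 and 2 lower (medians 0.96 and 0.73; 30.5% and 33.2% of all genes were up). Mitotic genes led in both. In colon Mki67 was 153, 172, 104.6 and 88.9 CPM (2.12 ± 0.26) and Ccna2 72.6, 73.2, 39.4 and 41.7 (1.93 ± 0.25). In stomach Cdk1 was 15.1, 25.9, 32.0 and 22.3 (2.06 ± 0.26), and Birc5 averaged 22.3 ± 8.13 (2.03 ± 0.27). Between the 2 organs only Cdk6 and Cdk4 were called, where 40.0% of all genes were. Cdk6 was 63.8, 61.8, 69.5 and 84.1 in colon and 20.1, 12.2, 18.004 and 20.6 in stomach, without overlap (1.53 ± 0.21, edgeR adjusted p 1.6e-07). Cdk4 was 100.3, 107, 80.0 and 84.4 in colon and 73.6, 109, 102 and 96.0 in stomach (-0.50 ± 0.14). Its CPM overlapped, the fold rests on the TMM factors (means of 1.03 and 0.754), and the call was lost without stomach replicate 2 (log2 fold change -0.35). Without colon replicate 4, 4 members were called.

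In ovary 23 members were higher and 3 lower (median 0.68; 32.4% of all genes were up). The checkpoint kinase gene Bub1 (1.90 ± 0.26), Ccnb1 (1.86 ± 0.29) and Cdk1 (1.54 ± 0.28) led. The 4 libraries differed widely: replicate 1 was lowest for 35 members (46.3% of all genes) and replicate 4 highest for 34 (32.7%). Replicate 4 was the only ovary library outside run D812, so library and run cannot be told apart there. Mki67 was 36.2, 91.1, 55.7 and 109 CPM, Ccnb1 11.2, 35.2, 23.4 and 40.1 and Ccnd1, in another order, 87.1, 79.9, 91.3 and 27.2. Markers of granulosa cells, which divide as the follicle grows, were lowest in replicate 1 and highest in replicate 4 for all 5 genes. Amh, a hormone gene of these cells, was 46.9, 199.97, 119 and 249.7, and the 5 markers summed to 831, 2002, 1693 and 3328. The 3 oocyte markers summed to 38.3, 162, 104 and 164, and the fibroblast markers to 5836, 3648, 4198 and 1783. Their part in the member levels was not tested. In skin 13 members were higher and 3 lower (median 0.29; 30.4% of all genes were up), so the share was close to the background. Ccnd2 led in skin, at 299, 318.4, 329.9 and 333.6 (1.37 ± 0.19, edgeR adjusted p 1.0e-07).

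In the other 5 tissues most members were lower. The counts were 36 lower and 2 higher in brain (median -2.72; 35.0% of all genes were down), 35 and 1 in heart (-2.31; 31.2%), 35 and 1 in liver (-1.92; 35.7%), 33 and 2 in kidney (-1.29; 25.6%) and 27 and 2 in lung (-0.90; 25.2%). The median of all genes was itself -0.44 in liver, -0.29 in heart and -0.17 in brain, and RLE scaling moved the brain value to -0.06. In brain Mki67 was 0.215, 0.422, 0.483 and 0.360 CPM (-7.27 ± 0.57), Top2a averaged 0.467 ± 0.160 (-6.57 ± 0.52) and Aurkb 0.172 ± 0.0399 (-5.62 ± 0.47). In liver Plk1 was 0.503, 0.405, 0.300 and 0.870 (-3.14 ± 0.38), and in heart Ccnb1 was 0.319, 0.693, 0.340 and 0.553 (-3.24 ± 0.47). The largest fitted differences of kidney and lung were in E cyclins: Ccne1 was 1.14, 1.07, 0.306 and 0.350 in kidney (-2.51 ± 0.34), and Ccne2 averaged 1.81 ± 0.355 in lung (-1.67 ± 0.31).

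The few members that were higher in these 5 tissues were mostly G1 cyclins and their kinases. In brain, where the other 36 were lower, Ccne1 was 11.9, 13.6, 11.7 and 10.96 CPM (1.52 ± 0.23, edgeR adjusted p 2.5e-07) and Ccne2 10.1, 8.59, 8.57 and 11.6 (1.01 ± 0.24, 2.8e-04). Ccnd1 was higher in lung, at 210.4, 212, 212 and 235 (1.28 ± 0.15), and in kidney, at 186, 159.9, 181 and 214 (1.48 ± 0.15). Cdk6 was higher in lung (0.95 ± 0.14) and liver (0.61 ± 0.14), and Ccnd2 in heart, at 106, 101, 151 and 119.7 (0.80 ± 0.21). The exception among these, outside the G1 genes, was Tyms in kidney, at 16.6, 16.6, 17.4 and 15.97 (0.69 ± 0.17, edgeR adjusted p 5.5e-04). In the 7 other tissues, the members outside the G1 genes that were lower were Pcna in ovary (-0.47), Mcm2 in skin (-0.50) and Mcm4 in stomach (-0.39). Of the 3495 exon bases of Ccne2, 609 overlap Ints8 on the opposite strand, and of the 4709 of Ccnd1, 1100 overlap LTO1.

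**Figure D5:**
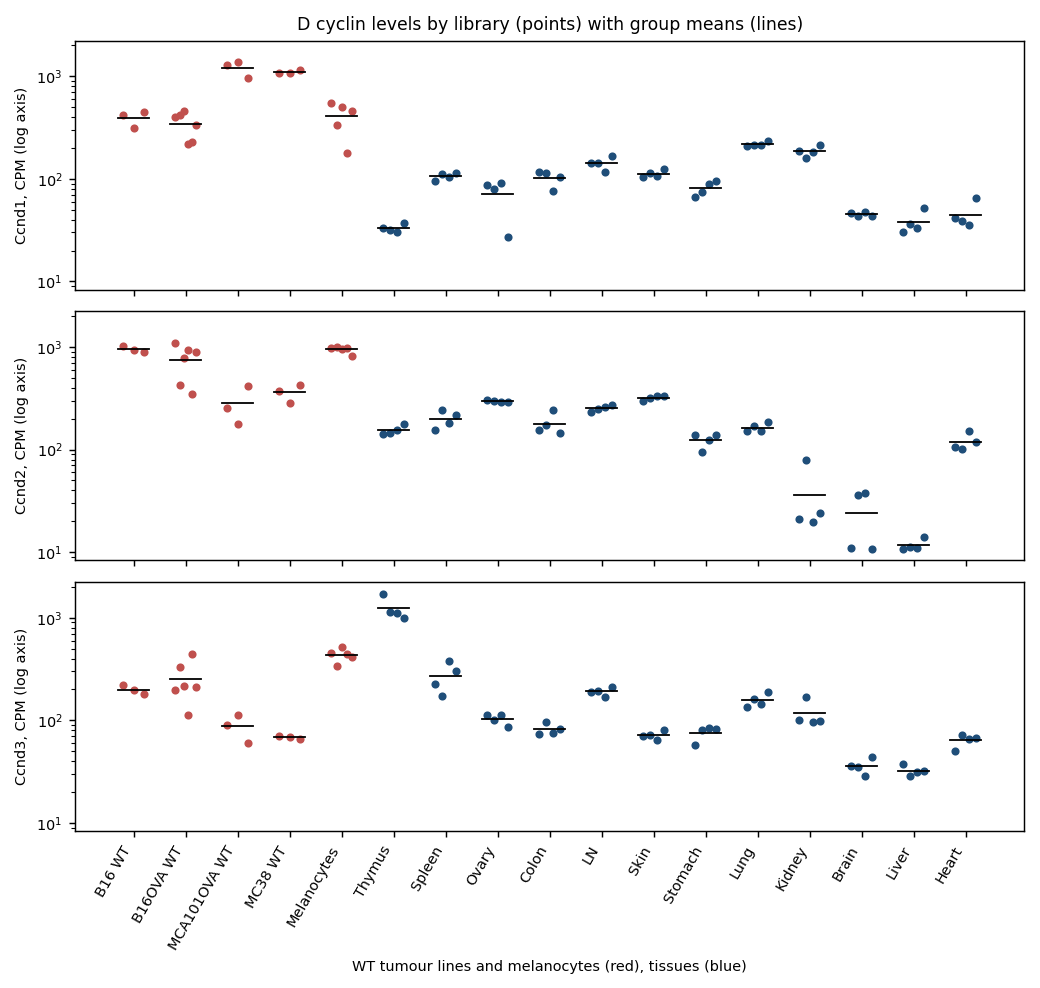
CPM (log axes) of the D cyclins Ccnd1, Ccnd2 and Ccnd3 in each library of the WT tumour lines, the melanocytes and the 12 tissues, with group means as lines; tissues run in falling order of the median over all 38 genes. Ccnd3 peaks in thymus (mean 1245), Ccnd1 is lowest there (33.1), and Ccnd2 is highest in skin (320) among the tissues.

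The D cyclins had 3 different tissue orders. Ccnd3 ran from thymus (mean 1245 CPM) through spleen (270.3) down to liver (32.3). Ccnd2 ran from skin (320.3), ovary (296) and LN (253.3) to liver (11.8), and Ccnd1 from lung (217) and kidney (185) to thymus (33.1). The libraries of lung and kidney overlapped for Ccnd1, as did those of skin and ovary for Ccnd2. Per kilobase of exon, Ccnd3 was the highest D cyclin in thymus (142 CPM per kb, Ccnd2 16.4, Ccnd1 7.03) and spleen (30.8). Ccnd2 was highest in heart, ovary and skin, and Ccnd1 in the other tissues. Over the 12 tissue means, Spearman's rho with Mki67 was 0.12 for Ccnd1, 0.67 for Ccnd2 and 0.71 for Ccnd3. It was 0.60 for Ccne2, 0.62 for Ccne1, 0.69 for Cdk6 and 0.81 or higher for the other members. The closest to Mki67 by this measure were Cdc20 (0.95), Top2a (0.95), Kif11 (0.94) and Aurkb (0.94). These values describe 12 tissues that share runs, and no test was made.

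The wider lists followed the members in the tissues at both ends. The shares of all genes called up in thymus, spleen and colon, and down in brain and kidney, stand above. Those in the opposite direction are not given, so counts in that direction are not set against the background. In thymus 46 of 47 other replication genes were higher and 0 lower, with 47 and 1 of 48 other mitosis genes and 25 and 5 of 31 inhibitors and regulators. E2f2, an activating E2F (4.76), the kinetochore gene Knl1 (4.47), Uhrf1 (4.47) and Clspn, of the replication checkpoint (4.17), led there. In spleen the counts were 45 and 0, 47 and 0, and 23 and 5, led by Orc1, the origin recognition subunit (3.61), and E2f2 (3.40). In brain they were 4 and 34, 3 and 42, and 4 and 20. In colon they were 20 and 10, 42 and 0, and 18 and 5. Cdkn2b (3.99) and Orc1 (3.29) differed most there. In kidney 1 replication gene was higher and 37 lower, with 4 and 40 of the mitosis genes, the higher ones of which included the kinetochore gene Spc25 (3.15).

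Set beside the tissues, the tumour lines were mostly above all of them, although they were sequenced in other runs and no test was made. The mean of the 15 WT line libraries was above every tissue mean for 30 of 38 members and for 18.9% of all genes. Thymus exceeded it for the other 8: Mki67 (705 CPM in thymus against 371), Ccnb2, Ccne2, Ccnd3, Cdk6, Mcm4, Birc5 and Kif11. For Ccnb1, Cdk1, Cdt1 and Aurka every WT line library lay above every tissue library, as for 1.97% of all genes. Ccnb1, for example, was at least 118 in the lines and at most 95.8 in the tissues. The melanocyte mean was above every tissue mean for 4 members (11.8% of all genes).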

How the data were processed

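The values are read counts per gene that the authors deposited as 1 table of 53379 gene rows and 105 libraries. Per the labels' protocols, polyadenylated RNA was sequenced with a stranded mRNA kit. Per the submitters' processing notes, the tools included HTSeq, STAR, FastQC and Trim Galore, and the build was mm10, with no versions or settings. How strand and reads with several matches were handled is not stated in the sources used here. Symbols were matched to 53274 of the gene rows.

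CPM were computed from the deposited counts over each library's total, and per kilobase by exon length. Tests used edgeR 4.0.16 in R 4.3.3 (TMM, filterByExpr, quasi-likelihood, Benjamini-Hochberg over all genes tested, called at an adjusted p under 0.05). The fits took 45 tumour line libraries with group and run, 23 libraries of run D176 with group, and 48 tissue libraries with tissue and run. Alternatives were DESeq2 1.42.0, other scalings, filters and terms, and leaving out each library, and the scripts were tested on simulated data. Runs are the codes in the library names. Library sets are the runs, with run B262 split by library number, a split that the labels do not name. A length slope is the slope of a library's log2 CPM, centred per gene, on log2 exon length over genes whose mean was 1 CPM or more. Depth ran from 17186211 to 254103370 counts, and intervals from counts cover counting error only. A scaled table that the authors also deposited was not used.

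The members and lists were chosen with earlier results of these data known. In full the text names 19 leading members, then called members with the largest log2 fold (up to 8 in a comparison of cultured cells, up to 5 in a tissue), and of the other pathway genes up to 4 per comparison that were called at a mean of 1 CPM or more. Members outside this rule are named where a count rests on them. Of 127 other pathway genes 126 were matched. A few listed marker and pathway genes are not reported here by name.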

Additional observations from a re-analysis of the deposited data

Results flagged for a closer look

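In groups of 4 to 10 libraries, a library was singled out when its gap to the nearest other exceeded Dixon's critical value for the group's range. The test was run on 128 groups of libraries over a part of the members, the D cyclins among them, and chance marks about 1 group in 20. It marked 9, of which 5 were D cyclins in solid tissues. How many of the groups tested were of D cyclins is not given, so this is no result about them. In kidney, replicate 2 was high for Ccnd2 (79.4 CPM against 19.6 to 23.9 in the other libraries) and for Ccnd3 (169.7 against 97.1 to 101.9). Ccnd1 was high in lung replicate 4 (235.0 against 210.4 to 212.2), and Ccnd2 in liver replicate 4 (14.2 against 10.7 to 11.3). Ccnd3 was low in stomach replicate 1 (57.2 against 80.6 to 84.2). In the melanocytes Ccnd2 was low in replicate 5 (825 against 962.6 to 1008). The MCM gene Mcm2 was low in heart replicate 1 (5.89 against 8.65 to 8.89). Cdk2 was high in skin replicate 1 (56.9 against 51.3 to 51.99), and Ccne1 in ovary replicate 4 (6.68 against 3.99 to 4.36). Lung replicate 4 and ovary replicate 4 were the only libraries of their tissues outside run D812.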

How the results depend on the processing

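Of the alternatives, 4 kinds were chosen after seeing the data: the length slope as a covariate, leaving out libraries of low slope in comparisons other than KO against Ctrl, the 2 pairs of spleen libraries, and leaving out the third MCA101OVA libraries. No call that was checked changed sign, and 157 settings of single members lost a call. The check covered every called member in the cultured comparisons, but only the 19 leading members in the tissues. The labels carry no replicate numbers, and with the library set as a replicate block 11 members differed between B16OVA and MC38 WT (7 with run), 10 between B16OVA and MCA101OVA WT (9), and 0 in the KO and Ctrl comparisons. Without a filter on low counts 1 member, Mki67, was called in MCA101OVA KO and 1, the same, in its interaction with B16OVA. Between B16OVA and MC38 WT, 12 were called with no run term, 11 without libraries of low slope, 11 within the shared run and 15 with the slope as a covariate (7 to 9 leaving out a library). Between B16OVA and MCA101OVA WT, 15 were called without libraries of low slope (6 to 11 leaving out a library). The median KO difference, behind which no member was called, changed sign in 1 of 25 settings in B16OVA (0.081 in run B253), in 5 of 19 in MCA101OVA (0.476 without libraries of low slope; -0.43 to 0.11 leaving out a library), in 8 of 17 in MC38 (-0.14 to 0.090) and in 0 of 18 in B16. Thymus against spleen gave 35 with spleen replicates 1 and 2, 8 with 3 and 4, and 14 to 30 leaving out a library. Spleen against LN gave 1 with replicates 1 and 2, and 21 (without spleen replicate 3) to 34 leaving out a library. Colon against stomach gave 1 to 4. Within tissue run D812 the counts were 18 in ovary (26 over both runs) and 13 in skin (16). The causes of these shifts were not tested. Counts of members under such settings, here and above, show only how the calls moved. Apart from the 2 pairs of spleen libraries, whose shares stand above, they are not set against the share of all genes.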

Other observations

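Run B176 held 7 further libraries, 1 for each line and variant, which entered no comparison. Their values have no replicate check. Mki67 was 75.7 CPM in B16 and 213 in B16-OVA, 132 in MC38, 311.3 in MC38-OVA and 169 in MC38-GFP, and 269.7 in MCA101 and 795 in MCA101-OVA. Ccnd1, the D cyclin that was lower in B16OVA than in the other lines, was 18.02 and 41.8 in the B16 libraries. It was 462, 790.2 and 608 in the MC38 libraries and 895 and 727 in the MCA101 libraries, above both B16 libraries in all 5. Ccnd2 was 1038 in B16 and 1020 in B16-OVA. Cdc6, the origin licensing gene, was 3.47 in B16 and 6.88 in B16-OVA, and thymidylate synthase, Tyms, 7.76 and 6.71. In the 6 B16OVA WT libraries of the other runs, Cdc6 was 72.9, 76.2, 65.8, 41.0, 70.7 and 64.2 and Tyms 120.2, 118, 122, 78.0, 113 and 88.5.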
